A study of Equus caballus with 31 samples.

Results

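This account follows 13 horses whose synovial fluid cells and blood mononuclear cells (PBMC) were both sequenced, and asks which genes were high or low in the joint and in the blood of the same animal. The horses were found by the horse number that the fluid and blood samples share, which gave 26 of the 31 libraries of the series; 5 of them had naturally occurring osteoarthritis (OA) and 8 were healthy. The series holds 4 groups of horses that all carry the genotype label WT: OA fluid (n = 5), healthy fluid (n = 11), OA blood (n = 6) and healthy blood (n = 9). Horses were classed by lameness examination, radiographs and joint analgesia, and recent medication or joint injection was a reason for exclusion. The fluid cells were pelleted after hyaluronidase digestion, and both tissues are labelled as mixed mononuclear cells, so each library is a mixture of cell types. In such bulk samples, fewer cells of a type and less RNA per cell cannot be told apart. The labels give no sex, age or batch.

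Each gene's value was taken as log2(value + 1), where the value is the authors' normalized read count, and the mean of the gene's disease and tissue group was subtracted. The remainder, called the deviation here, says how far a horse lies above or below its own group, with the difference between the OA and healthy group means removed. These means include libraries of unpaired horses, so an offset between the paired OA and the paired healthy horses can remain. The fluid and blood deviations of the 13 horses were then correlated per gene. Levels are not compared between the 2 tissues, whose tables were normalized separately. Where the 5 horses with OA are listed, values are in the order of the tissue named first, and those of the other tissue follow in the same order of horses.

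As background, blood and joint exchange cells: monocytes and lymphocytes enter the synovium from the circulation, while lining macrophages and synovial fibroblasts live in the joint. Inherited variants near a gene can raise or lower it in every tissue of an animal, and hormones and circulating cytokines such as interferons and glucocorticoids reach both compartments. Joint injury, matrix fragments and the local cell mixture act in the joint alone.

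Recovered depth ran from 25.9 to 36.3 M reads per fluid library. Blood libraries held 23.9 to 34.8 M, and no 2 libraries of the same tissue and disease group were near copies of each other. Libraries of different groups or tissues were not compared in this way. The T cell markers CD3E, CD5 and LCK were found in every paired library of both tissues. The B cell markers CD79A and PAX5 were present in every blood library, with medians of 14012 and 1581, and their lowest fluid library was at 0. The macrophage genes C1QB and C1QC had medians of 28687 and 50359 in the fluid table and 229 and 429 in the blood table. The fibroblast collagen COL1A1, a marker of no mononuclear cell, ranged from 229 to 271266 in fluid and was at 0 in the median blood library. The red cell gene ALAS2 and the platelet gene PPBP had fluid medians of 0 and reached 86.0 and 74.0 in blood. One healthy horse stood apart: it held 82.1% of the sum of squares of the first principal component of the blood deviations, and its mean absolute deviation was the highest of the 13 horses in fluid (0.802 on the log2 scale) and in blood (0.567). Calls of the genes described by role are also given without it where that ends them, except for genes named only for lying near another called gene.

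Fluid and blood levels were positively linked for most genes, and strongly for few. Of the 12733 genes that averaged 10 or more in each table, 9839 (77.3%) had a positive correlation; the median Pearson r was 0.27 and the middle 50% of genes lay between 0.03 and 0.47. Correlations above 0.5 were found for 2819 genes (22.1%) and below -0.5 for 157 (1.23%). Within each horse, deviations in fluid and blood correlated over all genes at 0.12 to 0.39 (median 0.25), a description across genes, which are not independent. The median r was 0.33 over the 8 healthy horses and 0.21 over the 5 horses with OA; this difference was not tested.

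**Figure D1:**
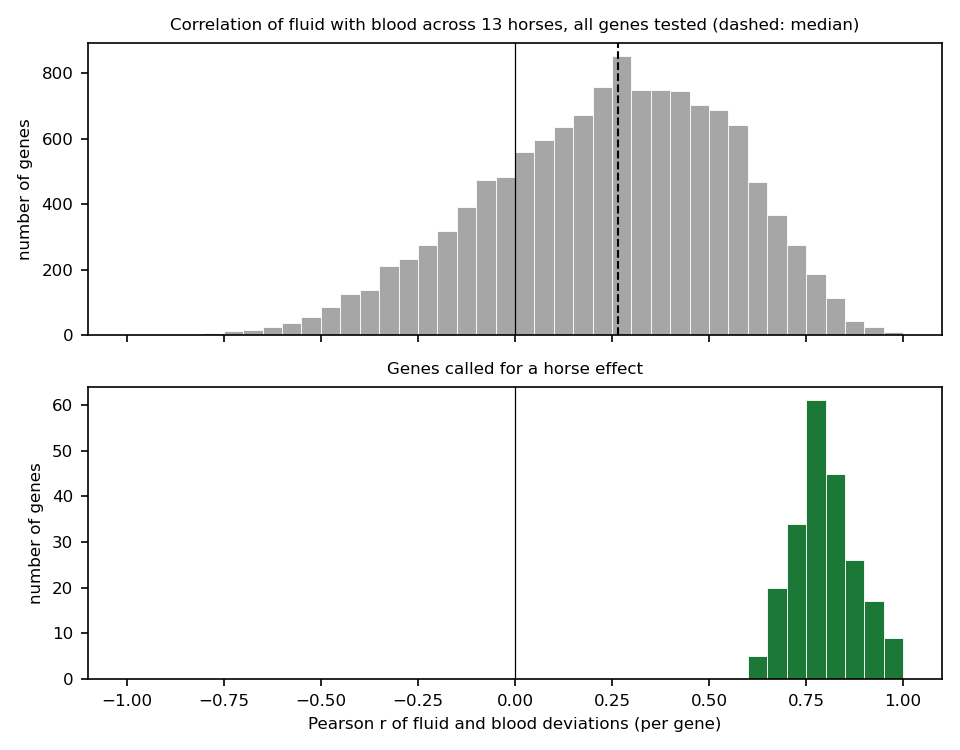
Distribution of the correlation (x axis, Pearson r of fluid and blood deviations across 13 horses) over the 12733 genes tested (upper panel; y axis, number of genes; dashed line, median of 0.27) and over the 217 genes called for a horse effect (lower panel). Most genes lie to the right of 0, and every called gene lies above 0.63.

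A permutation test that re-paired fluid with blood within disease groups (100000 draws, two-sided) called 3 genes after Benjamini-Hochberg adjustment over all 12733, a share of 0.0236%, and all 3 were positive. At an unadjusted p below 0.05 there were 1922 positive and 85 negative genes. The called genes had the smallest p that the draws can give, 1e-05, so the number of draws limits this count. When every one of the 4838400 re-pairings was counted for the leading genes, an alternative added after the data were seen, 18 genes were called, 17 positive and 1 negative. The 3 genes were RABAC1, which codes for a prenylated Rab acceptor of the Golgi, and the unnamed loci ENSECAG00000037980 and ENSECAG00000035596. RABAC1 gave 5661, 6260, 6638, 7317 and 11331 in OA fluid and 4988, 5331, 5741, 5540 and 6031 in OA blood. In healthy horses it ran from 2962 to 5845 in fluid (median 4562) and from 3164 to 9142 in blood (median 4873). Its r was 0.84 (95% interval 0.51 to 0.95) and its rho 0.93, with a permutation p of 1e-05 (adjusted 0.0424). The negative gene was UBE2A, a ubiquitin-conjugating enzyme on chromosome X, with an r of -0.87. Its permutation p was 8e-05 in the 100000 draws, which did not call it. The p from counting every re-pairing, by which it was called, is not given here.

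A second test asked whether a gene has a horse level common to both tissues: limma's F test of the horse terms over the 26 libraries, which by its construction calls only genes that deviate in the same direction. It called 217 of 12733 genes (1.7%) at an adjusted p below 0.05. Their r ran from 0.63 to 0.99 (median 0.79), 213 of them had an unadjusted re-pairing p below 0.05, and 123 were also called by edgeR on the recovered reads. Among the 5 horses with OA alone their median r was 0.79 and among the 8 healthy horses 0.85. The calls rest on agreement of fluid and blood in these same horses and libraries. These values therefore describe the called genes and are no independent support. "Called" below refers to this F test, and adjusted p-values are its Benjamini-Hochberg values unless the permutation is named. Called genes varied more than others, with a median SD of 0.84 against 0.50 for all genes in fluid and 0.73 against 0.33 in blood. When genes were ranked by the smaller of their 2 SDs, 0 of the 3184 steadiest were called and 156 of the 3183 most variable (4.90%). The median r did not follow the calls. It was 0.22 in the steadiest set, 0.28 and 0.30 in the sets between, and 0.25 in the most variable set. The calls alone therefore do not show that variable genes were more closely linked between tissues. A narrower set, described below, did have a higher median r. It was 0.47 in 169 genes of large SD in both tissues and means of at least 50, against 0.27 for all genes. That set leaves out genes of low mean. When genes were ranked by the smaller of their 2 means, median r was 0.18 in the lowest set and 0.34 in the highest. Spread and mean were not separated by a test. Why calls rose with spread was not tested.

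The most exact sharing was of genes that were high in some horses and low or at 0 in the others, with the same division of horses in fluid and in blood. There were 15 such two-level genes, defined by a gap of at least 1 on the log2 scale between the same sets of horses in both tissues; 9 of them had a gap of at least 3. Because the rule asks for this division, it is given as a description, and no correlation is given for genes whose horses fall into separate clusters. CCPG1, a receptor for turnover of the endoplasmic reticulum (EquCab3.0 chr1:136651418-136713209), was at 0 to 8.75 in the fluid of 8 horses and at 124 to 602 in that of the other 5. In blood the same 8 horses gave 0 to 7.63 and the same 5 gave 191 to 332. CYP2C92, a cytochrome P450 of drug and fatty acid metabolism (chr1:34126512-34346738), divided 8 low from 5 high horses, at 0 to 8.62 against 81.7 to 231 in fluid and 0 against 20.4 to 124 in blood. CRYBB3, a beta crystallin (chr8:12880261-12884972), was at 0 in both tissues of 4 horses and at 24.3 to 917 in fluid and 15.3 to 151 in blood of the other 9. Both levels of each of these 3 genes occurred among OA and among healthy horses.

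**Figure D2:**
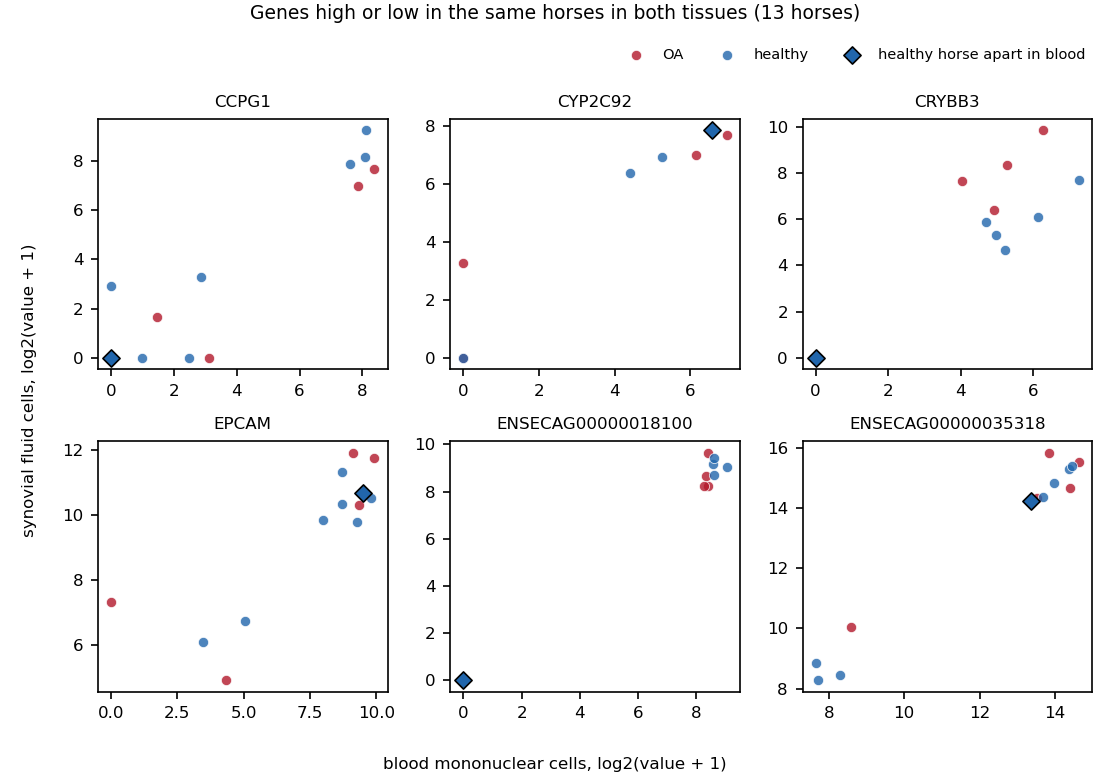
Each point is 1 horse, with its blood level on the x axis and its fluid level on the y axis, both as log2(value + 1), for 6 two-level genes (red, OA; blue, healthy; diamond, the healthy horse that stood apart in blood). Points that coincide at 0 overlap. The horses fall into a low and a high set, and no horse is high in one tissue and low in the other.

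The largest gaps belonged to loci without a gene name in the deposited table. ENSECAG00000018100 (chr4:50480022-50480886, between PRPS1L1 and HDAC9) was at 0 in both tissues of 5 horses and at 300.4 to 801 in fluid and 306 to 529.7 in blood of the other 8. ENSECAG00000039599 (chr8:6130921-6139350) reached 441 to 1095 in the fluid and 6638 to 44392 in the blood of 3 horses, against at most 5.37 and 73.5 in the other 10. ENSECAG00000027819 (chr18:3419360-3421473), whose span lies inside that of IWS1, was detected in 4 horses and at 0 in both tissues of 9. ENSECAG00000043488 (chr7:48733197-48734880) was at 64.8 to 155 over both tissues of 2 horses and at no more than 1.81 in the other 11. ENSECAG00000035318 (chr27:37573063-37575996, within the span of CSMD1) was at 19557 to 58852 in the fluid of 9 horses and 309 to 1060 in that of 4. ENSECAG00000028173, on chromosome 14, was low in the same 4 horses as ENSECAG00000035318 on chromosome 27; whether the pair share reads through similar sequence was not tested. EPCAM, an epithelial cell adhesion molecule, and CYP2D84, another cytochrome P450, had narrower gaps, outside the 8 widest, and are named here after their values were seen. EPCAM was at 29.4 to 159 in the fluid of 4 horses and 889 to 3887 in that of 9, and in blood at 0 to 32 and 257 to 975.

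Among called genes with a name and graded levels, the highest correlation belonged to OFD1 (chrX:10299506-10363498), a protein of the centriole and primary cilium. OFD1 gave 663, 2023, 2235, 2717 and 3151 in OA fluid and 920, 3555, 3838, 3915 and 3652 in OA blood. In healthy horses it ran from 1207 to 4737 in fluid (median 2394) and from 1171 to 4322 in blood (median 1850). One horse with OA was far below the other 4 in both tissues, and the healthy horses spread over about the same width in each. Its r was 0.94 (0.78 to 0.98), its rho 0.91 and its adjusted p 4.18e-06, and r was 0.90 without the 2 horses farthest from the blood median. SKAP2, an adaptor of leukocyte adhesion (r = 0.93, adjusted p = 0.00237), and PLCB2, the phospholipase C of chemoattractant receptors in blood cells (r = 0.92, rho = 0.97, adjusted p = 0.0155), followed. PLCB2 ran from 5493 to 15401 in OA fluid and from 5726 to 12094 in OA blood, and the order of the horses was nearly the same in both. Of the 152 called genes with a name, the others among those of largest r were C18H2orf80, PRXL2B, MINPP1, TMEM35B, RSKR, RGS2, P2RY13, CCRL2, MRPS12, ITPA, BACH1, MTF1, DQA, ASB13 and LATS2, with r from 0.86 to 0.92. RSKR, at an adjusted p of 0.0482, was called in 1 of 13 fits that each left out 1 horse. They do varied work: BACH1 represses haem and antioxidant genes, ITPA clears damaged purine nucleotides, P2RY13 is an ADP receptor and LATS2 is a kinase of the Hippo pathway.

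Of 20 tested genes on a list of X-linked genes with a Y copy or X escape in other mammals, 2 were called, OFD1 and the histone demethylase KDM6A (r = 0.74, adjusted p = 0.0407, or 0.0555 without the horse that stood apart). The list's median r was 0.47 against 0.27 over all genes. On chromosome X as a whole 9 of 435 genes (2.07%) were called and the median r was 0.28.

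The major histocompatibility complex (MHC) on chromosome 20 codes for the molecules that present peptides to T cells and is among the most variable regions of vertebrate genomes. In the stretch from MHCX1 to DQA (chr20:29901225-34028726, chosen after its values were seen), 10 of 89 tested genes (11.2%) were called, against 1.60% of the 12601 genes placed elsewhere, and the median r was 0.42. DQA, an alpha chain of MHC class II (chr20:33922749-34028726), gave 2813, 3876, 8808, 12655 and 50017 in OA fluid and 3606, 3329, 5326, 18128 and 17700 in OA blood. In healthy horses DQA ran from 3012 to 60140 in fluid (median 11978) and from 1813 to 31036 in blood (median 6698). Both groups overlapped across nearly the whole range, and the same healthy horse was highest in both tissues (r = 0.87, 0.58 to 0.96; rho = 0.86; permutation p = 0.00033; adjusted p = 0.00125). The unnamed locus ENSECAG00000033152 (chr20:33206619-33362837, between NOTCH4 and BTNL2) ranged from 10.2 to 8363 in healthy fluid and from 19.6 to 6840 in healthy blood, with an r of 0.96 and an adjusted p of 3.99e-08. ENSECAG00000038391 (chr20:31916182-31919005, next to MHCB3) had an r of 0.92. Of the list of MHC class II presentation genes, DQA alone was called among 17, and the list's median r of 0.42 fell to 0.10 when 1 horse was left out. Of the MHC class I presentation list, 0 of 15 were called (median r 0.31); B2M and PDIA3, its members of highest mean, had r of 0.33 and 0.27. The horse MHC holds near-identical genes whose reads the counting may have split, so single values here are uncertain.

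Loci without a gene name were called more often than named genes: 65 of 1151 (5.65%) against 152 of 11582 (1.31%). Called genes also lay near one another. Of 212 called genes placed on a chromosome, 26 (12.3%) had another called gene within 100 kb, and 690 of all 12690 placed genes (5.44%) had a called gene that near. Of the 17 such pairs 6 overlapped; the sources used here do not say whether counting used strand, so reads of overlapping genes cannot be told apart. Correlations between neighbours are given as descriptions, with no test. ADCY4, an adenylyl cyclase, and LTB4R, a leukotriene B4 receptor, lie 1922 bp apart on chromosome 1, and their deviations correlated at 0.70 in fluid and 0.61 in blood. FIBP and CCDC85B, 2098 bp apart on chromosome 12, correlated at 0.84 and 0.86. APOBEC3Z1B, a cytidine deaminase of antiviral defence, and the unnamed ENSECAG00000032756 on chromosome 28 correlated at 0.97 and 0.91. Both were highest by far in the healthy horse that stood apart. For APOBEC3Z1B it was 5.99 above its group in fluid and 7.16 in blood, and for the unnamed locus 6.71 and 8.08. The lowest values were those of EQMHCC1 and the unnamed ENSECAG00000038391 in the MHC, at -0.47 and -0.75. TLR2, the receptor for bacterial lipopeptides, and ENSECAG00000033827, which lies within its span, correlated at -0.24 and -0.40. On chromosome 1, between OR4E1 and the T cell receptor gene TRAV29DV5, 4 called unnamed loci lay between positions 160887122 and 161100373.

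Among 49 gene lists, the highest median correlations were those of pattern recognition, glycolysis, sterol synthesis, X-linked genes, hypoxia targets and type I interferon response, and the lowest those of synovial fibroblasts, endothelial cells, red cells, dendritic cells and heat shock. Lists are described by their called members and their median r beside 1.7% and 0.27 for all genes, and by the correlation of the list's mean deviation across the 13 horses, with no test. Pattern recognition and inflammasome genes had the highest median, 0.55, with 26 of 28 positive and 3 called (10.7%). NAIP, the sensor of bacterial flagellin and secretion needles, gave 477, 1062, 2394, 3355 and 3637 in OA fluid and 1379, 1921, 3215, 5422 and 3517 in OA blood. In healthy horses NAIP ran from 403 to 2677 in fluid (median 633) and from 595 to 1886 in blood (median 1275). Its r was 0.85 (0.55 to 0.96), its rho 0.84 and its adjusted p 0.00944, and it was called whichever horse was left out. CLEC4E, a receptor for mycobacterial and damaged-cell ligands, had an r of 0.80 (adjusted p = 0.00237) and TLR2 one of 0.74 (adjusted p = 0.0346). Without the horse that stood apart CLEC4E had an r of 0.66 (adjusted p = 0.045) and TLR2 one of 0.61 (adjusted p = 0.124), so TLR2 was then no longer called. The list's mean deviation correlated at 0.80 between tissues and at 0.73 without that horse, and its median r was then 0.39. The median was 0.31 with the first principal component taken out of each tissue and 0.33 with the mean deviations of the T cell and monocyte lists taken out.

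**Figure D3:**
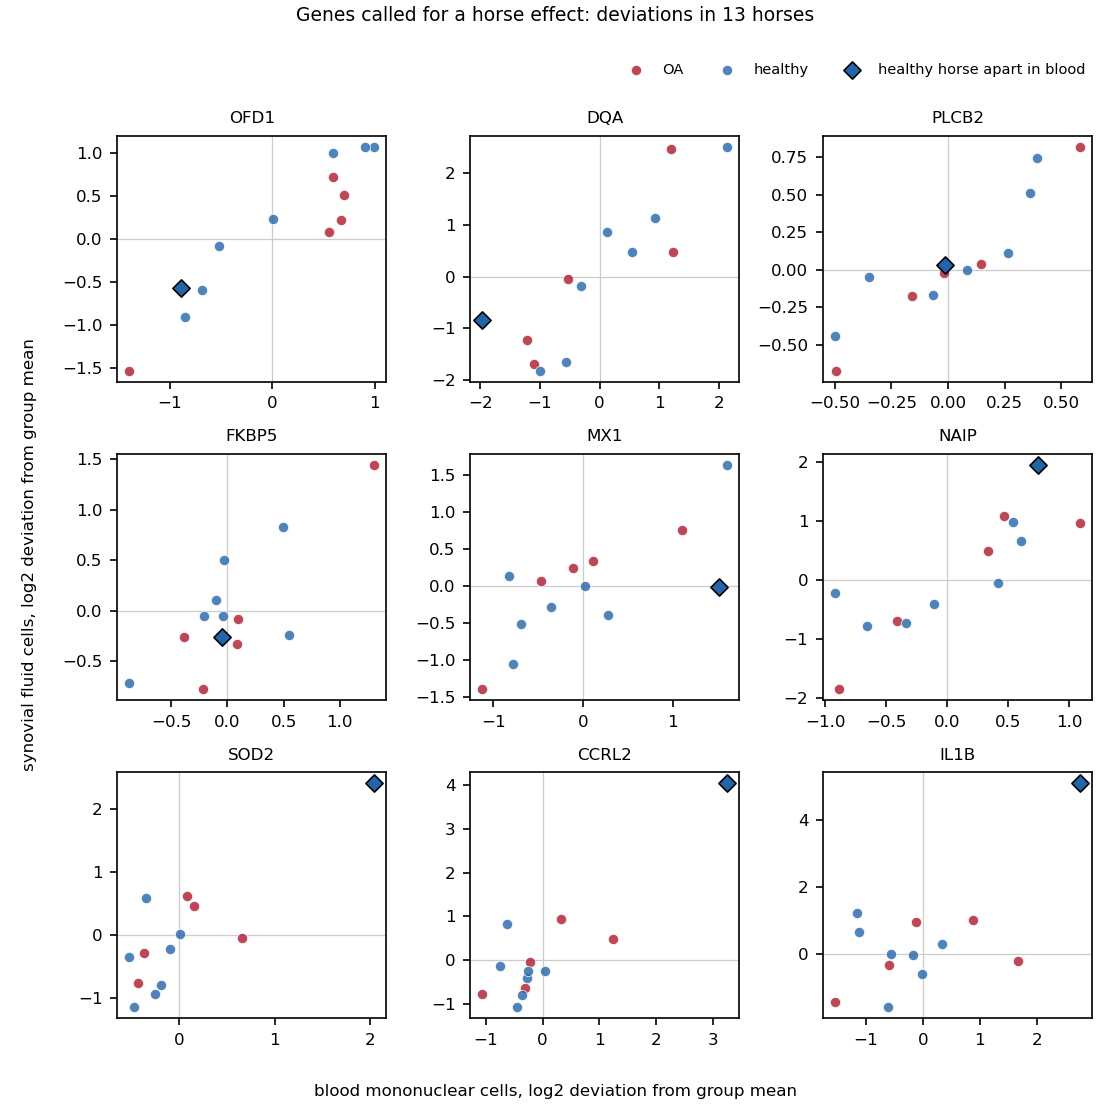
Each point is 1 horse, with its deviation from the group mean in blood (x axis) and in fluid (y axis), both on the log2 scale, for 9 called genes (red, OA; blue, healthy; diamond, the healthy horse that stood apart in blood). OFD1, DQA, PLCB2 and NAIP are graded over all horses; in SOD2, CCRL2 and IL1B the diamond lies far above the other 12 horses in both tissues.

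Type I interferon genes are induced together by interferon from virus-sensing cells. Of 35 tested members, 33 had a positive r, the median was 0.43 (0.46 without the horse that stood apart) and 2 were called (5.71%). ISG15, a ubiquitin-like modifier, gave 268, 338, 758, 805 and 987 in OA fluid and 291, 212, 414, 274 and 1073 in OA blood. In healthy horses ISG15 ran from 481 to 4058 in fluid (median 924) and from 294 to 7551 in blood (median 556). The highest value in each tissue was that of the horse that stood apart, and r was 0.85 with it and 0.75 without it (adjusted p = 0.00425 and 0.0275). MX1, an antiviral GTPase, had an r of 0.74 (adjusted p = 0.0172) and 0.84 without that horse, whose MX1 was 1.52 above its group in blood and -0.01 from it in fluid. The list's mean correlated at 0.54, at 0.70 without that horse, and at 0.64 after the first principal component was taken out of each tissue.

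Glucocorticoid-responsive genes had a median r of 0.30, near that of all genes, and 2 of 19 were called (10.5%). FKBP5, a chaperone that dampens the glucocorticoid receptor and rises with cortisol, gave 3201, 4359, 4550, 5164 and 14830 in OA fluid and 4294, 5312, 3829, 5330 and 12331 in OA blood. The highest value in each tissue came from the same horse. Its r was 0.79 (0.40 to 0.94), its rho 0.58, its permutation p 0.00673 and its adjusted p 0.0142; without the 2 horses farthest from the blood median r was 0.43. SGK1, a kinase induced by glucocorticoids and cell stress, was called (r = 0.63, adjusted p = 0.0387). For SGK1 r was -0.06 without the 2 horses farthest from its blood median and 0.25 without the horse that stood apart (adjusted p = 0.286). The list's mean correlated at 0.55, and at 0.36 without the horse that stood apart.

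Several inflammatory genes were called with the healthy horse that stood apart and not without it. IL1B, the fever-inducing cytokine, gave 795, 1712, 1874, 4163 and 4395 in OA fluid and 85.1, 165, 796, 229 and 461 in OA blood. In healthy horses IL1B ran from 122 to 12545 in fluid (median 409) and from 55.3 to 842 in blood (median 97). The healthy horse that stood apart was 5.09 above its group in fluid and 2.76 above it in blood on the log2 scale, and no other horse exceeded 1.22 and 1.67. With that horse r was 0.67 (adjusted p = 0.0435); without it r was 0.17 (adjusted p = 0.356). SOD2, a mitochondrial superoxide dismutase induced by NF-kappa-B, fell from an r of 0.83 to 0.37 without it, CCRL2, a chemerin-binding receptor, from 0.88 to 0.44, BTG2, an antiproliferative early response gene, from 0.78 to 0.47, and RGS2, a brake on G protein signalling, from 0.89 to 0.64. None of these 5 was called without it. Of the 217 called genes, 40 had an r below 0.5 when some single horse was left out, and for 20 of them it was this horse; 99 of the 217 stayed called without it, among 103 calls. Of the 217, 42 were called whichever horse was left out. The NF-kappa-B list (2 of 19 called, median r 0.38) had a list mean that correlated at 0.59 with this horse and at 0.11 without it. The list means of immediate early genes (0.61 and 0.28) and of the cytokines of the study's immunoassay panel (0.51 and -0.04) dropped as well.

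Metabolic lists lay on both sides of the median r of all genes, 0.27, of which 77.3% were positive. Fatty acid use and PPAR target genes had a median of 0.22, with 13 of 17 positive and 0 called. Antioxidant and NRF2 targets had a median of 0.28 and a list mean that correlated at 0.04. Glycolysis genes had a median r of 0.52, with 20 of 21 positive, and a list mean that correlated at 0.48. One of them was called: ALDOC, an aldolase, with an r of 0.76 (adjusted p = 0.032). Sterol synthesis genes had a median of 0.50 with 18 of 21 positive and 0 called; their list mean correlated at 0.78, and at 0.71 to 0.865 when each horse was left out. SREBF2, the sterol-sensing transcription factor, had an r of 0.54. Hypoxia targets had a median of 0.45, or 0.22 with the first principal component taken out, and a list mean that correlated at 0.75, with 0 of 22 called; LDHA had an r of 0.51 and HIF1A one of 0.27. Cytosolic ribosomal proteins were positive in 67 of 68 (median 0.42, 0 called; 0.14 with the T cell and monocyte list means taken out), respiratory chain subunits in 63 of 67 (median 0.37, 0 called) and mitochondrial ribosomal proteins in 57 of 67 (median 0.36, 1 called, MRPS12 with an r of 0.87 and an adjusted p of 0.0358, or 0.0555 without the horse that stood apart). Proteasome subunits were positive in 25 of 28 (median 0.35). Splicing factors had a median of only 0.24 and yet a list mean that correlated at 0.74. MTF1, the zinc sensor that drives metallothioneins, was called (r = 0.87, adjusted p = 0.0341; 0.0612 without the horse that stood apart), 1 of 5 tested genes of the metallothionein and zinc list. GSTM3, a glutathione transferase, was the called gene of 14 glutathione and xenobiotic enzymes (r = 0.78, adjusted p = 0.032, or 0.0515 without that horse; list median 0.42). Heat shock genes (median 0.05; 12 of 19 positive) and unfolded protein response genes (median 0.11) showed little link, with HSP90AA1 at -0.35 and CALR at 0.09. Circadian clock genes had a median of 0.18.

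**Figure D4:**
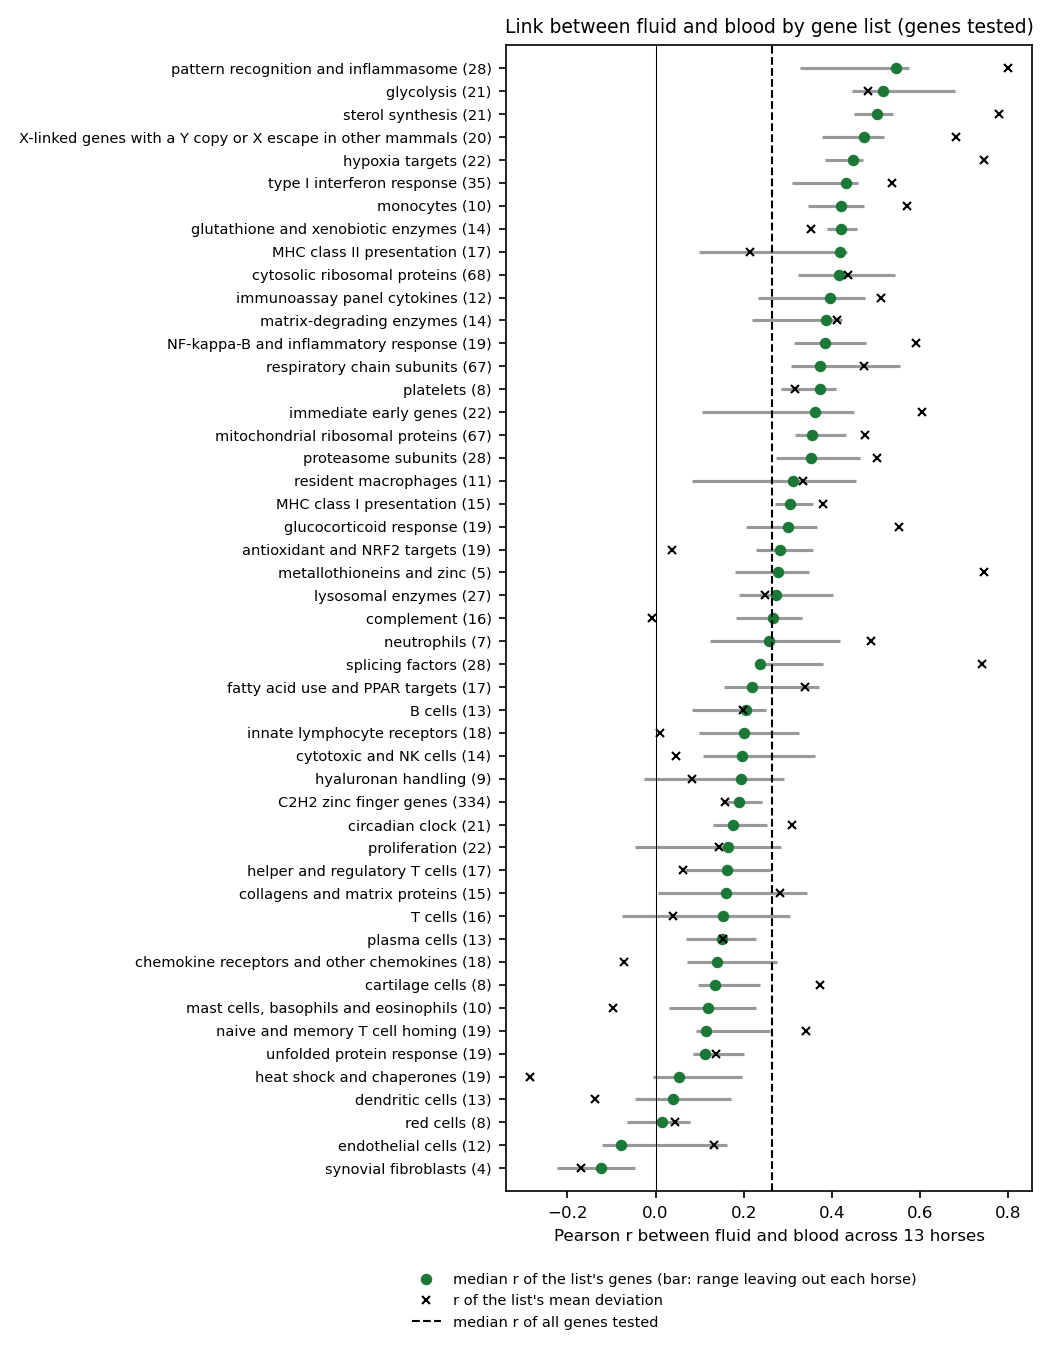
For each of 49 gene lists (genes tested in brackets), the green point is the median Pearson r of its genes across 13 horses, the bar its range when each horse is left out, and the cross the r of the list's mean deviation. The dashed line is the median of all genes tested, 0.27. Innate sensing, glycolysis and sterol synthesis are at the top, and synovial fibroblast, endothelial and red cell lists at the bottom.

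Lists of cell type markers differed in their link. Monocyte genes were positive in 10 of 10, with a median of 0.42 (0.28 in healthy horses) and 1 called: CEBPA, the transcription factor of the myeloid lineage, whose r of 0.71 (adjusted p = 0.0438) was 0.08 without the 2 horses farthest from the blood median. Its adjusted p was 0.0834 without the horse that stood apart. CSF1R, the receptor for monocyte survival signals, had an r of 0.66 and was not called. T cell genes had a median of 0.15 (0.27 without the horse that stood apart) with 0 of 16 called, and their list mean correlated at 0.04 (-0.32 to 0.18 when each horse was left out). CD3E had an r of 0.21 and LCK one of 0.13. Cytotoxic and NK cell genes (median 0.20; list mean 0.05), B cells (0.20; 0.20), helper and regulatory T cells (0.16; 0.06), plasma cells (0.15; 0.15) and dendritic cells (0.04; -0.14) were all below the median of all genes, and 0 of their members were called. At the 1.7% called over all genes, such lists would hold few or no calls. In B cells, CD79A was at -0.24 and MS4A1 at -0.07. Of the naive and memory T cell homing list (median 0.11, 0 of 19 called), KLF2, a transcription factor of resting T cells, had an r of -0.59. Neutrophil genes had a median of 0.26 and a list mean at 0.49, which was 0.23 when 1 horse was left out. Platelet genes (8 tested) had a median of 0.37.

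Among lists of cells and matrix of the joint 0 genes were called. At the 1.7% called over all genes, lists of this size would hold few or no calls, so the count does not set them apart. Resident macrophage genes were positive in 10 of 11, with a median r of 0.31 that ran from 0.08 to 0.46 when each horse was left out. MRC1, a mannose receptor, had an r of 0.54 and CD163, a haemoglobin scavenger receptor, one of 0.31, while the complement genes C1QC and C1QB had 0.15 and 0.26. Collagens and matrix proteins had a median of 0.16 (0.01 without the horse that stood apart) and an SD of the list mean of 1.49 in fluid against 0.40 in blood. Synovial fibroblast genes had the lowest median of the 49 lists, -0.12, over the 4 of 21 genes that were measurable in both tissues; COL1A1, COL1A2, COL3A1 and PDGFRA did not reach the mean of 10 in blood and were not tested. Endothelial genes had a median of -0.08, which was 0.36 in healthy horses and ran from -0.12 to 0.16 when each horse was left out, with 3 of 12 members above 0.5. Hyaluronan-handling genes were at 0.19 (CD44 0.20, VCAN 0.44) and ran from -0.03 to 0.29. Chemokine receptors and further chemokines had a median of 0.14, with CXCR4 at 0.01 and CXCL16 at -0.03. FN1, fibronectin, had an r of 0.16.

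Of 169 genes among the 10% with the largest SD in each tissue and with means of at least 50 in both, the median r was 0.47, 29 (17.2%) were called, and 28 (16.6%) had an r between -0.2 and 0.2, against 32.4% of all genes tested. Among those 28, the 10 with the widest spread were DKK3, MOGAT2, GNG11, CHI3L1, LY49C, EPAS1, EHD2 and 3 unnamed loci. CHI3L1, a chitinase-like glycoprotein of macrophages and chondrocytes, gave 462, 625, 1371, 1825 and 7716 in OA fluid and 54.2, 34.1, 16, 127 and 21.3 in OA blood. In healthy horses CHI3L1 ran from 0 to 341 in fluid (median 90.6) and from 9.67 to 429.5 in blood (median 52.6). Its r was -0.001 (-0.57 to 0.57), a low value by the rule that chose it, and every healthy fluid lay below the lowest OA fluid. DKK3, a secreted Wnt modulator, ran from 5.87 to 1653 in OA fluid and from 53.4 to 348 in OA blood, with an r of 0.07 that was 0.35 without the horse that stood apart. LY49C, an NK cell receptor of a family of similar copies, had an r of 0.08, EPAS1, an oxygen-sensing transcription factor, 0.04, and EHD2, a protein of caveolae, 0.06. GNG11, a G protein subunit abundant in platelets, had an r of -0.12, and MOGAT2, an enzyme of triglyceride synthesis, 0.12, or -0.23 without the horse that stood apart. That horse was also the lowest of all in blood for DKK3, EPAS1, EHD2 and GNG11, at -4.57, -5.23, -3.71 and -3.51 from its group.

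**Figure D5:**
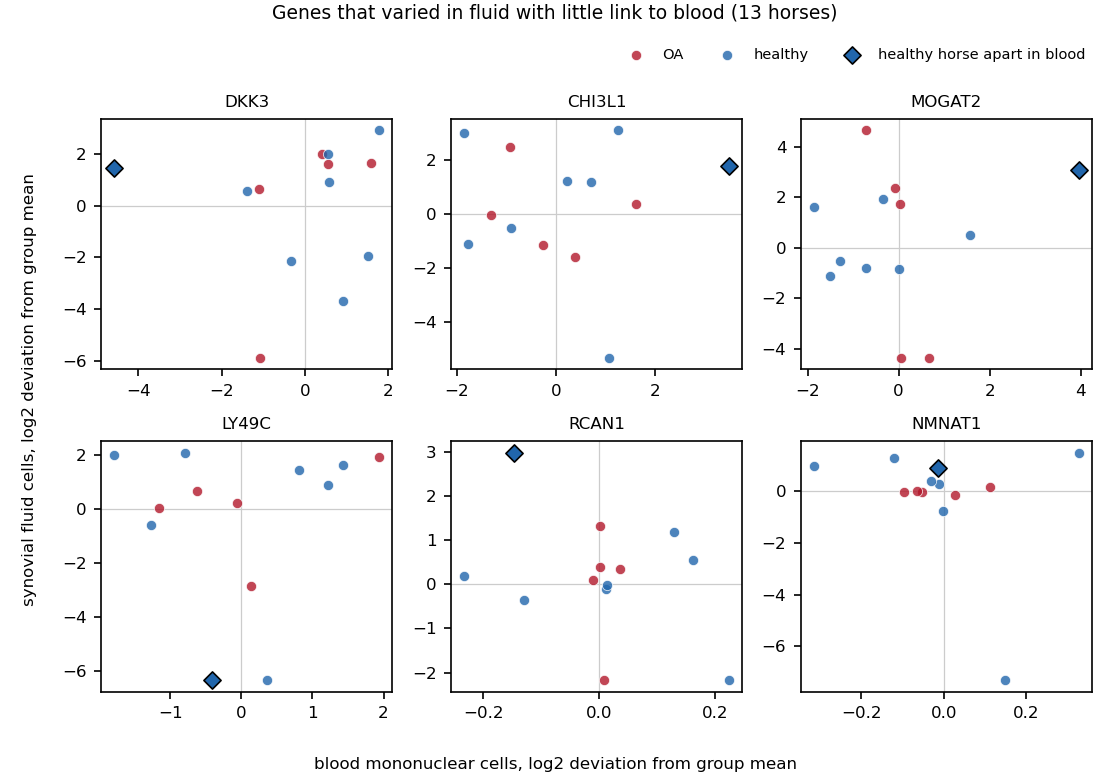
Each point is 1 horse, with its deviation from the group mean in blood (x axis) and in fluid (y axis) on the log2 scale, for 6 genes with a wide spread in fluid (red, OA; blue, healthy; diamond, the healthy horse that stood apart in blood). The clouds have no common direction. For RCAN1 and NMNAT1 the blood axis spans under 1 log2 unit.

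Some genes were steady in blood and variable in the joint. In 10886 of 12733 genes (85.5%) the SD was larger in fluid. RCAN1, a feedback inhibitor of calcineurin, gave 509, 513, 513, 516 and 525 in OA blood, where the 5 horses were nearly equal, and 3251, 3968, 7582, 679 and 3860 in OA fluid. In healthy horses RCAN1 ran from 425 to 583 in blood and from 225 to 8029 in fluid, so its SD was 10.8 times larger in fluid, and its r was -0.35 (-0.77 to 0.28; permutation p = 0.313). NMNAT1, ELP6, HTD2 and VMAC had SDs that were 9.12 to 14.8 times larger in fluid, and each was listed at 0 in 1 healthy fluid library. For ELP6, whose r was 0.85, r was as low as 0.13 when 1 horse was left out, and ELP6 was not called.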

How the data were processed

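Each deposited table holds a normalized signal for every gene, which the authors made by scaling counts with size factors; DESeq, cutadapt, STAR 2.7.3, HTSeq, Partek and the horse build EquCab3.0 are listed per the submitters' processing notes. Their parameters were not given in the sources used here. Nonzero values below 2000 reads were whole multiples of 1 read within 0.1, so reads were recovered for edgeR. Fluid and blood were deposited as separate tables, joined here by gene symbol, and levels were not compared between them.

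Group means came from all 31 libraries. Each r has a 95% Fisher interval; its two-sided permutation p re-paired horses within disease 100000 times, adjusted over 12733 genes. The limma F test had 11 horse terms and 11 residual degrees of freedom. It assumes equal spread in both tissues. The pairing comes from the horse numbers in the titles. In 13 of 13 horses the within-horse correlation over genes exceeded 0.1 (0.123 to 0.391). Values for fluid and blood of different horses are not given beside it, so it cannot show that the pairing is right. The F test sets the differences between horses against the disagreement of fluid and blood within a horse. The permutation p is the share of re-pairings that gave an absolute r at least as large.

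The horses, gene lists and tests were chosen with earlier results of these data known. Named genes were those called with the largest r (mean of at least 50), up to 2 per list, two-level genes, 10 widely varying genes with absolute r below 0.2, and 5 with the largest ratio of SDs. The first 2 rules were applied to the F test's calls, and to 20 named genes, after the re-pairing test gave few. A list without calls is given by its 2 members of highest mean, some of which are not reported here; CSF1R, MRC1 and CD163 were named after their values were seen. Values of all 49 lists stand in the plot of lists. Tests were checked on simulated data, drawn independently for each gene and with no horse that stood apart. The check therefore does not cover calls that rest on such a horse. Versions were R 4.3.3, limma 3.58.1, edgeR 4.0.16, Python 3.11.15, numpy 2.4.6, pandas 2.3.3 and scipy 1.17.1.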

Additional observations from a re-analysis of the deposited data

Results flagged for a closer look

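A library stood far from the others of its group for 55 of 308 groups of gene, tissue and disease tested (17.9%). Chance gives about 1 in 20 for genes not chosen from the data. The genes here were so chosen, many for divided or widely spread values, so that rate is no yardstick for them. Each value is the gap between the extreme library and its neighbour as a share of the group's range, on the log2 scale. Of the 55, 17 belonged to the healthy horse that stood apart. In OA fluid the gap of the lowest library was 0.741 for ENSECAG00000035318, 0.784 for ENSECAG00000028173, 0.854 for ENSECAG00000018100, 0.715 for OFD1, 0.726 for MINPP1 and 0.724 for RSKR. It was further 0.829 for BACH1, 0.74 for ASB13 and 0.825 for DKK3. In OA blood the gap of the lowest library was 0.817 for ENSECAG00000035318, 0.787 for ENSECAG00000028173, 0.98 for ENSECAG00000018100 and 0.933 for OFD1. In healthy fluid the gap of the lowest library was 0.559 for ENSECAG00000033152, 0.533 for PRXL2B, 0.674 for ENSECAG00000031157, 0.545 for ENSECAG00000039998, 0.543 for GNG11 and 0.745 for NMNAT1. It was further 0.769 for ELP6, 0.672 for HTD2, 0.693 for VMAC, 0.531 for UBE2A and 0.535 for ENSECAG00000035746. In OA fluid the gap of the highest library was 1 for ENSECAG00000039599, 1 for ENSECAG00000043488 and 1 for ENSECAG00000027819. In OA blood the gap of the highest library was 0.812 for ENSECAG00000039599, 0.717 for FKBP5, 0.783 for ENSECAG00000043488 and 1 for ENSECAG00000027819. In healthy blood the gap of the lowest library was 0.586 for PRXL2B, 0.536 for BACH1, 0.584 for ENSECAG00000031157, 0.61 for GNG11, 0.778 for EPAS1 and 0.608 for ELP6. It was further 0.645 for CSF1R and 0.698 for AZIN1. In healthy blood the gap of the highest library was 0.55 for MINPP1, 0.594 for RGS2, 0.802 for CCRL2, 0.531 for ISG15, 0.649 for SGK1 and 0.792 for SOD2. It was further 0.619 for IL1B, 0.634 for BTG2 and 1 for ENSECAG00000043488. In healthy fluid the gap of the highest library was 0.79 for RGS2, 0.631 for CCRL2, 0.555 for MX1, 0.58 for IL1B, 0.553 for BTG2 and 1 for ENSECAG00000043488. It was further 0.663 for TLR2.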

How the results depend on the processing

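The re-pairing test called 3 genes. It called 0 with Spearman's rho, without a filter on the mean, with group means from the paired horses only, with values scaled to equal totals, with T cell and monocyte list means taken out, and in healthy horses only, and 79 when no group means were removed. Leaving out each horse gave 0 to 18, and counting every re-pairing, added after seeing the data, 18. With the horse as a replicate block, limma's F test called 217 and edgeR's 131; leaving out each horse gave 103 to 251 by limma. The median r of 0.27 was 0.22 without the filter, 0.33 in healthy horses, 0.228 as a consensus correlation with a replicate block, and 0.246 to 0.285 when each horse was left out. The r of SGK1 became -0.0575 without the 2 horses farthest from its blood median. Of 1919 alternative values for named genes, 138 were no longer past the threshold and 150 moved by more than their error. For lists 34 of 1176 moved. The cause was not tested. With 13 horses, intervals of r are wide, and calls at an adjusted p near 0.05 changed with single horses.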
